A study of Mus musculus with 6 samples.

Results

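The genes described here make and control DNA replication and supply its nucleotides. They are 48 genes fixed by name: 20 of origin licensing and the replicative helicase, 10 of the polymerases, primase and the single-strand binding protein RPA, 8 of the sliding clamp, its loader and strand joining, 5 of nucleotide supply, 4 of chromatin assembly and histone supply, and the transcription factor gene Mybl2. Every probe set (a group of short probes that together read 1 transcript) that the platform annotation gives to 1 of these symbols alone was taken. This found 59 probe sets of 45 of the genes, out of 8251 genes on the array; Gins1, Pole and Tyms had none. Mcm6, Dbf4 and Gins2 were too dim to be tested, with mean signals at or below 74.0 in both genotypes, which left 42 genes.

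Whole fetal livers were taken at embryonic day 12.5 from matings of Rb heterozygous 129sv mice, untreated, and the RNA of every embryo went to a separate Affymetrix array. There were 3 Rb null embryos, in which the null genotype is that of the whole embryo and not of the liver alone, and 3 wild type embryos. Litter and sex are not given, and the samples are whole livers, so fewer cells of a type and less RNA per cell cannot be told apart. Values are MAS5 signals in linear units, and their precision is limited by the number of arrays. The Rb1 signal was 139, 142 and 127 in Rb null livers, against 791, 754 and 706 in wild type livers. The labels do not say whether its probes fall inside or outside the deletion, so the signal is given without being used as a check. The 2% trimmed mean was about 500.2 units on every array. Log2 values correlated across probe sets with r from 0.982 to 0.988 within a genotype and from 0.966 to 0.973 across genotypes.

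Replication begins when the origin recognition complex, Cdc6 and Cdt1 load the Mcm helicase onto DNA in G1. The kinase Cdc7 with Dbf4, and Cdc45 with the GINS complex, then switch the helicase on in S phase, and polymerases, clamp and ligase copy and join the strands. The retinoblastoma protein holds back E2F transcription factors, which are known to switch on many of these genes as cells enter S phase. The fetal liver at this age is filled with dividing erythroblasts, whose last divisions are coupled to maturation.

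The promoters of these genes were searched for E2F sites around the start site, and 4 of them are printed as examples. Mcm5 and Cdc6 were lower in Rb null livers, and each holds an E2F match. Orc1 holds one too and missed the test narrowly, and Rrm2, with the smallest p among the 42 tested replication genes, holds none. Each stretch is the 170 bases just upstream of the RefSeq start site in build GRCm38.p6, read on the strand of the gene (the plus strand in all 4). Capitals mark E2F matches and CCAAT boxes, on either strand.
Mcm5, chr8:75109339-75109508: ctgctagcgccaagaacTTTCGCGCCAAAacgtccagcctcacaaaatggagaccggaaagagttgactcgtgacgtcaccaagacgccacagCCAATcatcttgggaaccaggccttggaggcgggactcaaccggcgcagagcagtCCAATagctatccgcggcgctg
Cdc6, chr11:98907981-98908150: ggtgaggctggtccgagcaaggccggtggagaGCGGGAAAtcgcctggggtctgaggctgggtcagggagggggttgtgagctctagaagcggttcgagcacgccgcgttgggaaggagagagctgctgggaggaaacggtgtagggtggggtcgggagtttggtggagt
Orc1, chr4:108579284-108579453: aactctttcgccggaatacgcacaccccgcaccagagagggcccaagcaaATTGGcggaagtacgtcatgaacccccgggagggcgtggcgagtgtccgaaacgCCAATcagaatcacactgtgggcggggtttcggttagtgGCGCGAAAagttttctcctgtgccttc
Rrm2, chr12:24708084-24708253: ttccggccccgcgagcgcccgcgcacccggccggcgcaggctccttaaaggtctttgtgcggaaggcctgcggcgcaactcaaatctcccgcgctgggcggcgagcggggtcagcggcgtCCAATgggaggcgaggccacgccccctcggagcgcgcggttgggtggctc

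In Mcm5 a pair of E2F matches overlaps, one on each strand, beginning 153 and 149 bases before the start site. The Cdc6 match begins 138 bases before its start site, and the Orc1 match 27 bases before. The E2F letters searched were TTTCCCGC, TTTGGCGC, TTTGCCGC and TTTCGCGC on both strands, in the window from 250 bases before to 50 bases after each RefSeq start site. Of the 48 genes 41 had such a window and 11 of these (26.8%) held a match. They were Cdc6, Cdt1, Lig1, Mcm3, Mcm5, Mcm6, Mcm7, Orc1, Pola1, Pold1 and Rfc3. In Cdt1, Lig1, Mcm3 and Pold1 every match began after the start site, not before it. The same search matched 5.38% of the 4297 tested genes on the array with a window and 2.60% of all 27025 genes in the table. The median GC content was similar in the replication genes (63.0%) and the tested genes (61.0%), but lower over all genes in the table (52.7%). CCAAT, the box bound by NF-Y, stood in 61.0% of the replication genes, 43.1% of the tested genes and 41.1% of all genes in the table. TTTGAA, the cell cycle homology region of genes that peak late in the cycle, stood in 19.5%, 14.7% and 20.2%. A match is only a run of letters and does not show that a factor binds there.

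Replication genes were lower in Rb null livers or did not pass the test, and none was higher past it. At an adjusted p below 0.05 (limma, Benjamini-Hochberg over 6793 tested probe sets), 11 of the 42 tested genes (26.2%) fell: Mcm3, Mcm5, Cdc6 and Orc2 of the licensing and helicase group, Pola2 and Rpa1, Lig1, Rrm2 and Dck, Slbp, and Mybl2. Over all 5273 tested genes the same test called 9.50% lower and 13.1% higher. The falls were small, from 0.750-fold to 0.861-fold of the wild type level computed after adding 50.02 units to each signal before taking log2, so that changes of dim genes are understated. The median log2 fold change (Rb null minus wild type) was -0.15 in the 42 genes and 0.02 in all tested genes, and 35 of the 42 (83.3%) had a negative value, against 46.2% of all tested genes. For 19 of the 42 genes all 3 Rb null values lay below all 3 wild type values, a share of 45.2% against 17.6% of tested genes. At an unadjusted p below 0.05 limma had 18 genes lower and 1 higher, the primase gene Prim1, where 15.8% of all tested genes were lower and 20.7% higher.

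**Figure D1:**
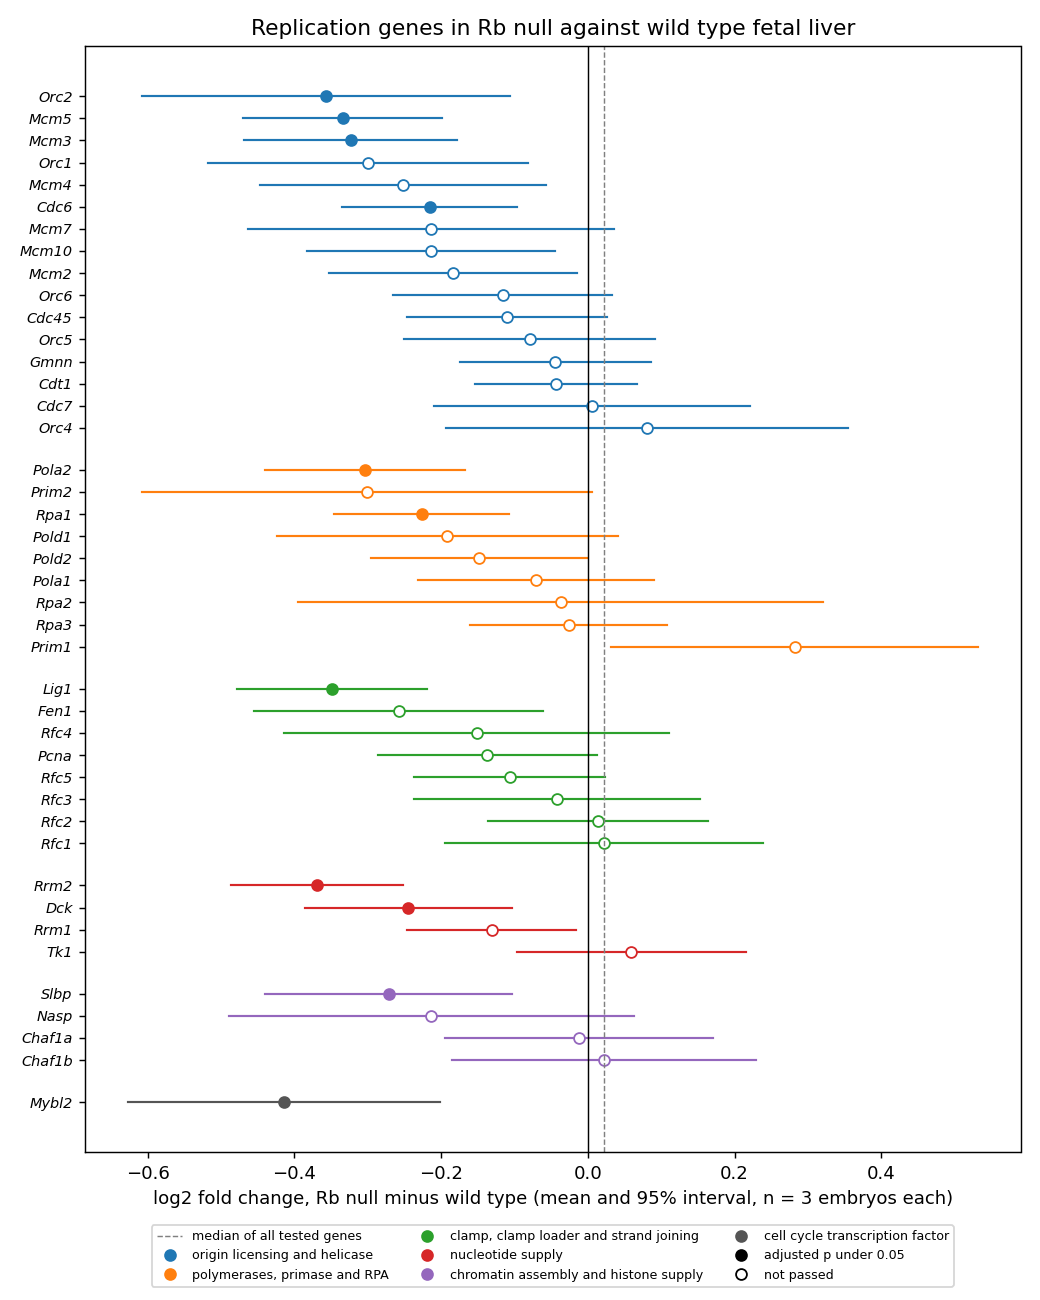
Log2 fold change (Rb null minus wild type, n = 3 embryos each) of the 42 tested replication genes with 95% intervals from limma, by sub-group; filled points passed the adjusted test and the dashed line is the median of all tested genes at 0.02. The 11 filled points all lie between -0.41 and -0.22, and Prim1 is the gene farthest to the right, at 0.28.

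The count depended on single embryos. Without Rb null embryo 1 it was 7, and without Rb null embryo 2 it was 6. Without wild type embryo 1 it was 7 with Prim1 higher, and without wild type embryo 3 it was 5. The number lower over all tested genes fell too, from 501 to 290, 295, 339 and 256 in the same order. Rrm2, Lig1, Mcm5, Mcm3 and Pola2 were the 5 genes that passed on leaving out any 1 embryo, and of these only Rrm2 also passed under all 12 other settings tried.

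Signal strength moved with the result. With tested genes parted by mean signal into 10 equal bins, the median log2 fold change was -0.15 in the brightest bin and 0.09 in the dimmest. Replication genes are bright, and 18 of the 42 lay in the 2 brightest bins, above a mean signal of 1541.5. There 9 of 18 were called lower, against 27.3% of all tested genes in those bins. In the other 8 bins it was 2 of 24 (8.33%), Orc2 and Mybl2, against 5.05%. Of the 42 genes 34 lay below the median of their own bin. The part of signal strength in the calls was not tested.

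**Figure D2:**
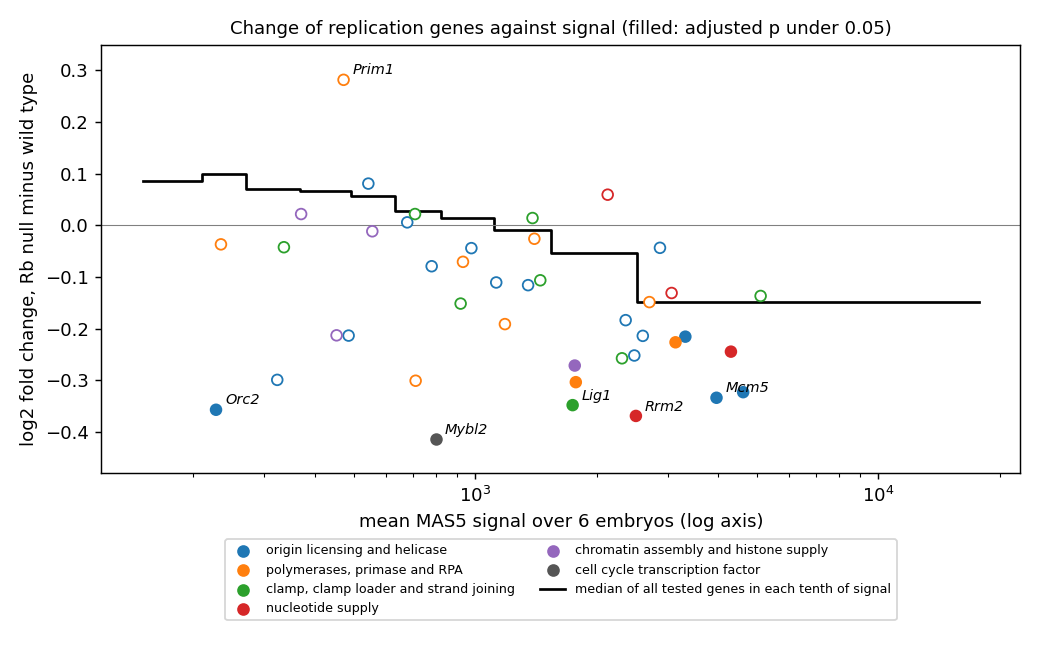
Log2 fold change (Rb null minus wild type) of the 42 replication genes against mean signal over the 6 embryos on a log axis; filled points passed the adjusted test and the black step line is the median of all tested genes in each of 10 signal bins. The line runs from 0.09 at the dim end to -0.15 at the bright end, and 34 of the 42 points lie below it.

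Per embryo, each gene was set against its mean over the 6 embryos, and the median over the 42 genes was -0.10, -0.07 and -0.04 (log2) in the Rb null embryos and 0.09, 0.06 and 0.09 in the wild type embryos. All tested genes had medians between 0.01 and 0.02 in the Rb null and between -0.02 and -0.00351 in the wild type embryos. In Rb null embryos 1, 2 and 3, 31, 27 and 28 of the 42 genes read below every wild type embryo, and 3, 4 and 2 read above every one. Over all tested genes each Rb null embryo had 31.1% to 31.3% below and 36.8% to 38.6% above every wild type embryo.

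**Figure D3:**
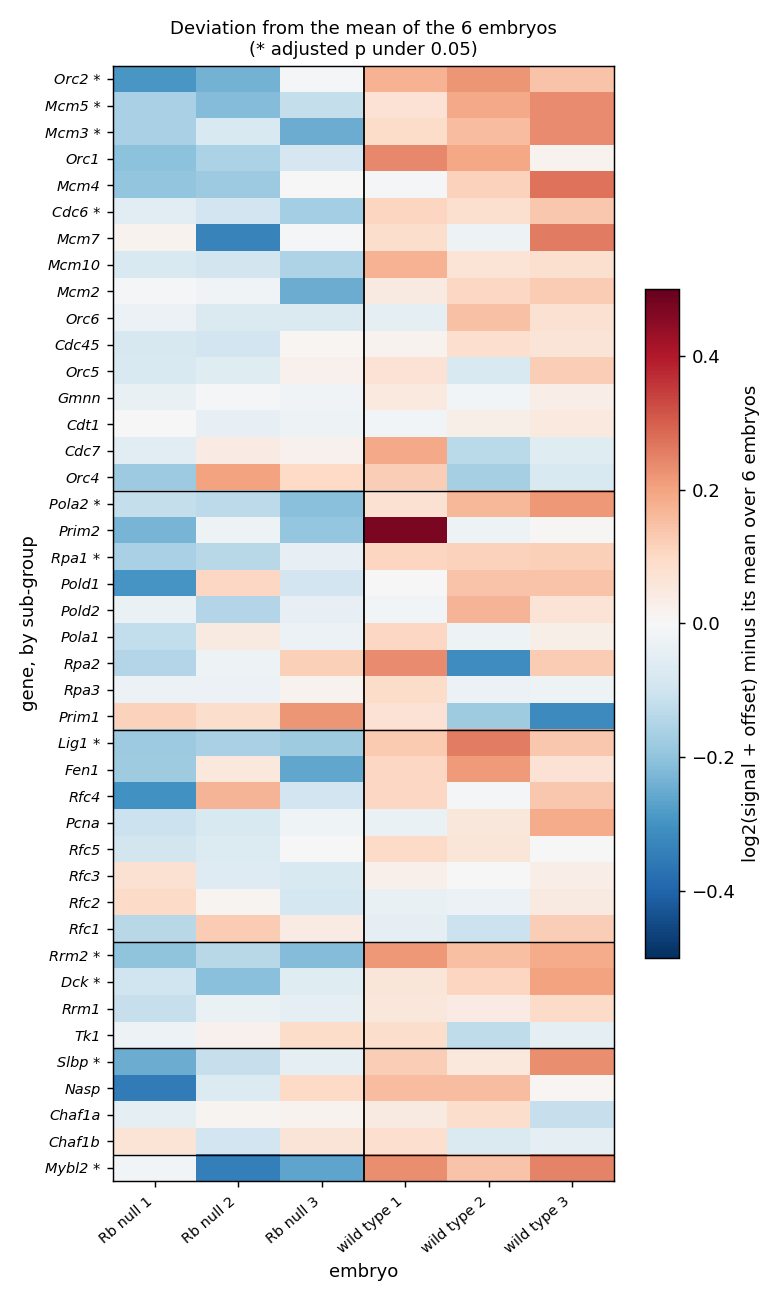
Deviation of each of the 42 genes from its mean over the 6 embryos, in log2 of signal plus offset, with the 3 Rb null embryos left of the line and the 3 wild type embryos right of it; horizontal lines part the sub-groups and asterisks mark the genes past the adjusted test. Rb null columns are mostly blue (below the mean), and Rb null embryo 1 has 31 genes below every wild type embryo.

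Of the helicase and origin genes 4 of 16 tested fell, 25.0% against 9.50% of all genes, and the group median was -0.20. Mcm5, a subunit of the Mcm ring that unwinds DNA, read 3514, 3376 and 3616 in Rb null livers and 4147, 4499 and 4648 in wild type livers. Every Rb null embryo lay below every wild type embryo, and the log2 fold change was -0.33 ± 0.06 (SE; limma adjusted p = 0.00656). Mcm3, another ring subunit, read 4097, 4343 and 3855 in Rb null and 4892, 5112 and 5415 in wild type livers (-0.32 ± 0.06, adjusted p = 0.00973), again with no overlap. Its other probe set fell too, reading 1841, 2134 and 1770 against 2323, 2464 and 2327 (-0.31 ± 0.08, adjusted p = 0.0239). After quantile normalization (adjusted p = 0.0563) and cyclic loess (adjusted p = 0.0698) the Mcm3 call was lost, and Mcm5 did not pass when its bright probe set was averaged with a dim one below the filter (-0.29, adjusted p = 0.138).

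The remaining ring genes leaned the same way without passing. Mcm4 had -0.25 ± 0.08 (adjusted p = 0.0672), Mcm7 -0.21 ± 0.11 (adjusted p = 0.2) and Mcm2 -0.18 ± 0.07 (adjusted p = 0.112) as log2 fold change. Mcm2 read 2339, 2320.4 and 1973 in Rb null and 2431, 2531 and 2572 in wild type livers, so its groups did not overlap, whereas those of Mcm4 and Mcm7 did. Mcm10, which joins the helicase to the polymerase at the fork, had -0.21 ± 0.07 (adjusted p = 0.0729), with no overlap either. The Mcm6 probe set, was dim in every embryo and says nothing of Mcm6.

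Cdc6, which loads the ring onto origins, read 3182, 3093 and 2934 in Rb null and 3574, 3502 and 3637 in wild type livers (-0.22 ± 0.05, adjusted p = 0.022). The groups did not overlap, but Cdc6 no longer passed under quantile normalization (-0.13, adjusted p = 0.124), cyclic loess (-0.11, adjusted p = 0.168) or a fit with no intensity trend (adjusted p = 0.0566), nor without 1 of Rb null embryos 2 and 3 or wild type embryos 1 and 3 (adjusted p from 0.0543 to 0.0761). Orc2, a subunit of the origin recognition complex, read 175, 184 and 223 against 259.9, 271 and 254 (-0.36 ± 0.11, adjusted p = 0.0499). It stood at the edge of the test, and leaving out any embryo but Rb null embryo 3 ended the call (adjusted p from 0.0989 to 0.141), as did averaging in a dim probe set below the filter (-0.14, adjusted p = 0.263), no filter (adjusted p = 0.105) and the smaller offset (adjusted p = 0.051). Orc1, the ATPase subunit of the complex, read 271, 282 and 299 in Rb null and 387, 373 and 325 in wild type livers (-0.30 ± 0.10, adjusted p = 0.0559). Its groups were apart, and it passed after quantile normalization (-0.40, adjusted p = 0.023).

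Other licensing genes were close to level. Geminin, the Cdt1 inhibitor encoded by Gmnn, had -0.04 ± 0.06 with a 95% interval from -0.17 to 0.09, the kinase gene Cdc7 had 0.01 ± 0.09 (-0.21 to 0.22), and Orc4 had 0.08 ± 0.12 (-0.19 to 0.35). Cdc45 (-0.11 ± 0.06), Orc5 (-0.08 ± 0.07) and Orc6 (-0.12 ± 0.06) leaned lower without passing. Cdt1, the licensing factor that geminin holds back, gave unlike answers on its probe sets. The brighter one read 2874, 2791 and 2819 in Rb null and 2847, 2932 and 2970.4 in wild type livers (-0.04 ± 0.05, adjusted p = 0.568). The dimmer one, whose suffix letter f can mark probes shared within a gene family, read 1370.1, 1246 and 1213 against 1470.4, 1480.0 and 1547 (-0.23 ± 0.06, adjusted p = 0.0387). Cdt1 is counted by its brighter probe set as not passed. By probe sets, 13 of 48 tested ones fell and none rose, against 9.08% lower and 12.8% higher of all tested probe sets.

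Among polymerase, primase and RPA genes 2 of 9 fell (22.2% against 9.50% of all tested genes, group median -0.15). Pola2, the regulatory subunit of the polymerase that starts each strand, read 1622, 1608 and 1522 in Rb null and 1862, 1985 and 2057 in wild type livers (-0.30 ± 0.06, adjusted p = 0.00981). All Rb null embryos were lower. A dim second Pola2 probe set read 279, 214 and 188 against 291, 175 and 158 (0.12 ± 0.20, adjusted p = 0.711), and with the mean of both the call was lost (-0.09, adjusted p = 0.593). Rpa1, the large subunit of the protein that coats single strands, read 2791, 2840.5 and 3038 against 3373, 3388 and 3403 (-0.23 ± 0.05, adjusted p = 0.0181), with the wild type embryos almost equal. It lost the call after quantile normalization (-0.11, adjusted p = 0.14), after cyclic loess (-0.13, adjusted p = 0.0846) and without 1 of Rb null embryos 1 and 2 or wild type embryos 1 and 3 (adjusted p from 0.0503 to 0.068). The other RPA genes, Rpa2 (-0.04 ± 0.16) and Rpa3 (-0.03 ± 0.06), did not pass.

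The primase genes pointed apart. Prim1, the catalytic subunit that makes the RNA primer, read 510.4, 500.2 and 552 in Rb null and 494, 407 and 365 in wild type livers (0.28 ± 0.11, adjusted p = 0.101). Every Rb null embryo was above every wild type embryo, the reverse of the 19 genes with groups apart downward, yet it passed only without wild type embryo 1 (0.39, adjusted p = 0.038). Prim2, its partner subunit, read 589.5, 689 and 607 against 990.2, 689 and 705 (-0.30 ± 0.13, adjusted p = 0.148). Wild type embryo 1 stood far above the rest and the groups overlapped. Pola1, the catalytic subunit of the priming polymerase, had -0.07 ± 0.07, and the lagging-strand polymerase genes Pold1 (-0.19 ± 0.10) and Pold2 (-0.15 ± 0.06) did not pass.

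Of the clamp, loader and joining genes 1 of 8 fell (12.5%, close to the 9.50% of all genes; median -0.12). Lig1, the ligase that seals Okazaki fragments, read 1522, 1539 and 1523 in Rb null and 1901, 2076 and 1904 in wild type livers (-0.35 ± 0.06, adjusted p = 0.00454). The Rb null embryos were nearly equal and all lower. A second Lig1 probe set was below the filter, reading higher in all 3 Rb null embryos (73.7 at the lowest) than in the wild type embryos (68.8 at the highest), and averaging it in removed the difference (0.00246, adjusted p = 0.991). Fen1, the nuclease that trims those fragments, read 2022, 2387 and 1908 against 2471, 2668 and 2417 (-0.26 ± 0.09, adjusted p = 0.0656). Its groups did not overlap, but 1 Rb null embryo was close to the wild type range. Pcna, the sliding clamp, read 4727, 4824 and 5012 in Rb null and 4969, 5290.1 and 5796 in wild type livers (-0.14 ± 0.06, adjusted p = 0.172), and its groups overlapped. Its 95% interval ran from -0.29 to 0.01. None of the clamp loader genes passed, with Rfc1 (0.02 ± 0.09), Rfc2 (0.01 ± 0.07), Rfc3 (-0.04 ± 0.08), Rfc4 (-0.15 ± 0.11) and Rfc5 (-0.11 ± 0.06) as log2 fold changes.

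Nucleotide supply genes fell in 2 of 4 cases, against 9.50% of all tested genes, with a median of -0.19. Rrm2, the small subunit of ribonucleotide reductase made mainly in S phase, read 2154, 2252 and 2129 in Rb null and 2896, 2762 and 2828 in wild type livers. Both groups were tight and far apart (-0.37 ± 0.05, adjusted p = 0.00231), and the fold was 0.774. Its partner Rrm1, the large subunit, read 2823, 2999 and 2962 against 3193, 3156 and 3283 (-0.13 ± 0.05, adjusted p = 0.0984), lower in every Rb null embryo but short of the test. Dck, which phosphorylates salvaged deoxycytidine, read 4004, 3702 and 4110.2 in Rb null and 4468, 4622 and 4937 in wild type livers (-0.24 ± 0.06, adjusted p = 0.0255). The groups were apart, but this probe set has the letter f, a dim second one read higher in Rb null without passing (0.13 ± 0.14), and Dck no longer passed after quantile normalization (-0.13, adjusted p = 0.0903), after cyclic loess (-0.12, adjusted p = 0.128), without a filter (adjusted p = 0.0517), with no intensity trend (adjusted p = 0.0583), with the mean of both probe sets (-0.06, adjusted p = 0.574) and without 1 of Rb null embryos 1 and 2 or wild type embryos 2 and 3 (adjusted p from 0.0556 to 0.0878). Tk1, the salvage kinase of thymidine, read 2092, 2162 and 2268 against 2262, 1942 and 2058 (0.06 ± 0.07, adjusted p = 0.585), with overlapping groups and a 95% interval from -0.10 to 0.22.

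Among chromatin assembly and histone supply genes Slbp alone of 4 fell (25.0% against 9.50% of all tested genes). Slbp, which binds the stem-loop of histone mRNAs, read 1469.9, 1618 and 1698 in Rb null and 1916, 1822 and 2069 in wild type livers (-0.27 ± 0.07, adjusted p = 0.0324). The groups were apart by a narrow margin, and Slbp did not pass without 1 of Rb null embryos 1 and 2 or wild type embryos 1 and 3 (adjusted p from 0.0756 to 0.106), after quantile normalization (adjusted p = 0.0507) and cyclic loess (adjusted p = 0.0518), with no filter (adjusted p = 0.059) and with no intensity trend (adjusted p = 0.0599). The histone chaperone gene Nasp had -0.21 ± 0.12, and the chromatin assembly factor genes Chaf1a (-0.01 ± 0.08) and Chaf1b (0.02 ± 0.09) were close to level.

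Mybl2, a transcription factor of dividing cells, had the largest fall of the 42 genes. It read 779.6, 611 and 648 in Rb null and 934, 876 and 945 in wild type livers (-0.41 ± 0.09, adjusted p = 0.0164). Rb null embryo 1 stood above the other Rb null embryos and still below every wild type embryo. The second Mybl2 probe set, dim and with the letter f, read 199, 168 and 161 against 124, 219 and 132 (0.14 ± 0.18, adjusted p = 0.616). The call was lost with the mean of both (-0.14, adjusted p = 0.431) and when Rb null embryo 2 or wild type embryo 1 or 3 was dropped (adjusted p from 0.0515 to 0.0555).

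**Figure D4:**
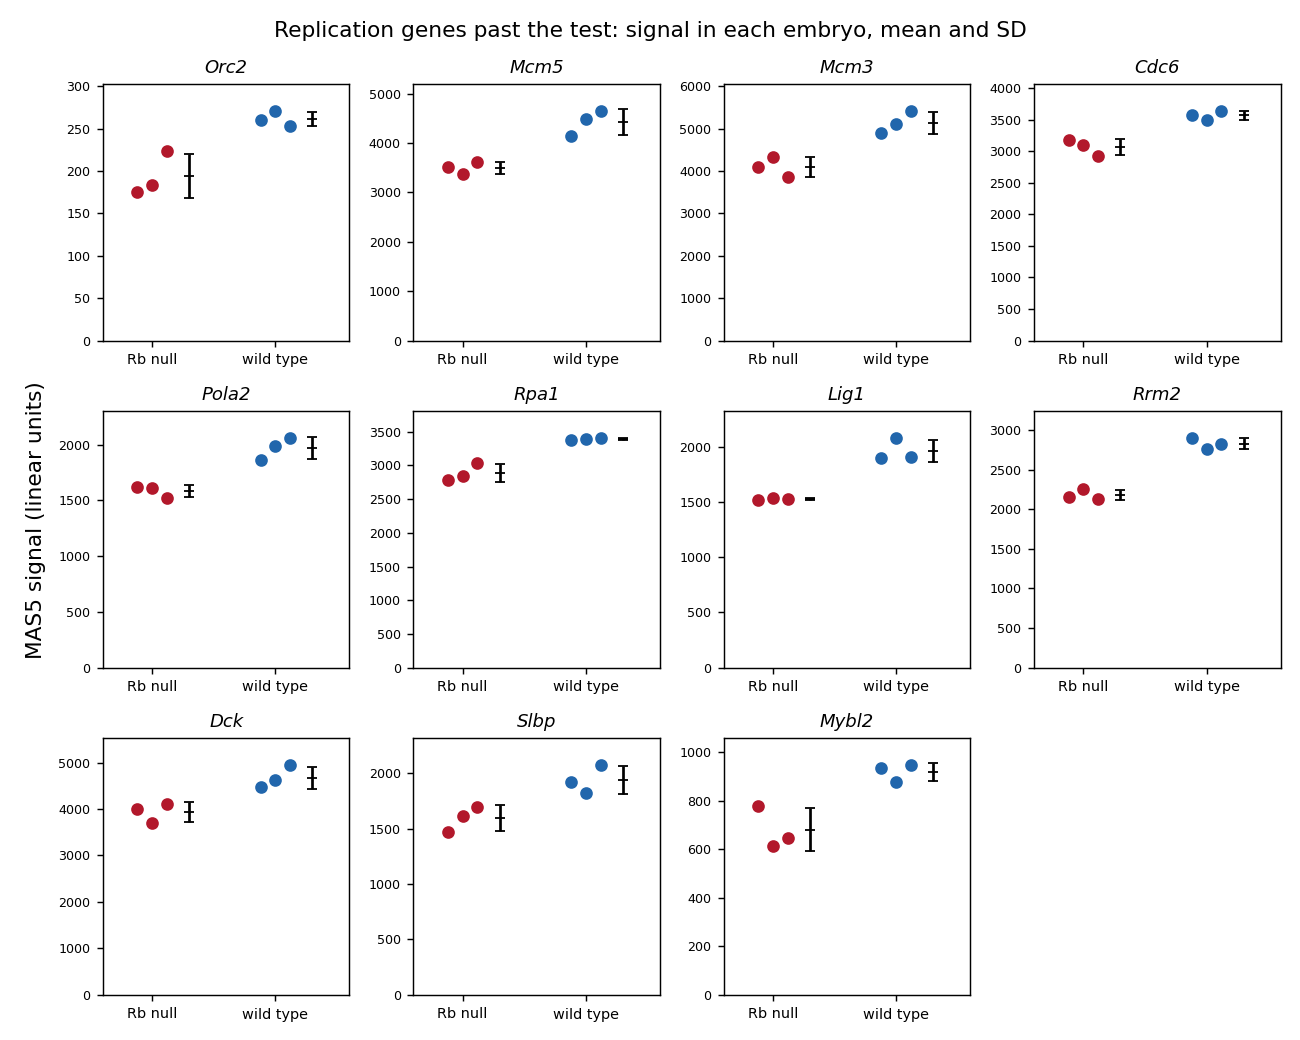
MAS5 signal (linear units, axes from 0) in each embryo for the 11 replication genes past the adjusted test, Rb null left and wild type right, with mean and SD beside the points (n = 3 embryos each). In each panel the 3 Rb null points lie below the 3 wild type points.

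E2F matches occurred among the genes that fell and among those that did not pass. A match stood in 4 of the 11 genes that fell (36.4%: Cdc6, Lig1, Mcm3 and Mcm5) and in 6 of the 27 with a window that did not pass (22.2%). The median log2 fold change was -0.21 in the 10 tested genes with a match and -0.13 in the 28 without. Over the array, 7.23% of the 415 genes called lower with a window held a match, against 5.38% of all tested genes.

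Genes of the same pathway outside the 48 were also lower or short of the test. Of 41 tested ones 11 fell and none rose (26.8% lower, median -0.16), against 9.50% lower and 13.1% higher of all tested genes. At an unadjusted p below 0.05 limma had 18 lower and 2 higher, against the 15.8% and 20.7% of all tested genes. Asf1a, a histone chaperone, read 1971, 2164 and 2154 in Rb null and 2894, 2394 and 3095 in wild type livers (-0.40 ± 0.09), and the histone acetyltransferase gene Hat1 also fell (-0.37 ± 0.11). Top1, the topoisomerase that unwinds supercoils ahead of the fork, read 5082, 4681 and 5471 against 6210.2, 6637 and 7029 (-0.38 ± 0.07), and the polymerase subunit gene Pole3 (-0.35 ± 0.08), the ribonuclease H2 subunit gene Rnaseh2b (-0.26 ± 0.05) and the fork gene Wdhd1 (-0.28 ± 0.07) fell too. Of 18 other nucleotide genes 5 fell (27.8% against 9.50% of all tested genes). They were led by the purine gene Adsl (-0.33 ± 0.09) and the CTP synthase gene Ctps (-0.28 ± 0.07). Next came the mitochondrial folate gene Mthfd2 (-0.27 ± 0.05) and the purine gene Gart (-0.27 ± 0.07). Every gene named in this paragraph had a limma adjusted p between 0.00824 and 0.0412. Top1, Rnaseh2b and Mthfd2 passed on leaving out any 1 embryo. The other 7 lost the call in turn, with adjusted p from 0.0505 to 0.119: Pole3 without Rb null embryo 1 or 2, Wdhd1 without Rb null embryo 1 or 3 or wild type embryo 1 or 3, and Gart without Rb null embryo 1 or 3 or wild type embryo 1 or 2. Asf1a lost it without Rb null embryo 1 or 2 or wild type embryo 1 or 3, and Ctps without Rb null embryo 2 or 3 or wild type embryo 2 or 3. Adsl kept it only without wild type embryo 2, and Hat1 only without wild type embryo 1. Quantile normalization and cyclic loess ended the calls of Mthfd2 (-0.13 and -0.12, adjusted p = 0.0759 and 0.091), Ctps (-0.19 and -0.20, adjusted p = 0.133 and 0.0979) and Hat1 (-0.26 and -0.27, adjusted p = 0.147 and 0.121). Averaging over probe sets ended those of Mthfd2 (-0.16, adjusted p = 0.287), Pole3 (-0.10, adjusted p = 0.491), Asf1a (-0.32, adjusted p = 0.062) and Hat1 (-0.18, adjusted p = 0.172). With no filter and with no intensity trend Adsl, Ctps and Hat1 did not pass (adjusted p from 0.0615 to 0.085).

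G2/M and mitosis genes gave a like share, 8 of 30 lower (26.7%, median -0.14) and none higher. Over all tested genes it was 9.50% lower and 13.1% higher. At an unadjusted p below 0.05 limma had 13 lower and 0 higher, against 15.8% and 20.7% over all tested genes. Of the genes past the test, the most changed were Ccna2 (-0.47 ± 0.10), Birc5 (-0.32 ± 0.06), Aurka (-0.30 ± 0.05) and Mad2l1 (-0.28 ± 0.07). Ccna2 lost the call without Rb null embryo 2 (adjusted p = 0.0504), and Mad2l1 when Rb null embryo 1 or wild type embryo 3 was dropped (adjusted p = 0.0525 and 0.0685), after quantile normalization (-0.21, adjusted p = 0.0584) and after cyclic loess (-0.21, adjusted p = 0.0537). The difference between the replication and mitosis shares was not tested.

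Markers of the cell types of the liver moved in the same arrays, where 9.50% of all tested genes were called lower and 13.1% higher. Of the terminal erythroid markers 10 of 12 tested were lower in Rb null livers and none higher by the brightest probe sets (median -0.52). Their summed signals were 63668 to 70065 in Rb null, against 86276 to 93302 in wild type livers. Tfrc was counted by its brightest probe set (0.02 ± 0.07, limma adjusted p = 0.89). A dimmer Tfrc probe set was higher in Rb null livers (0.37 ± 0.10, limma adjusted p = 0.0363). Progenitor markers had 2 of 6 higher, Kit and Myb (median 0.23, sums 5798 to 6229.9 against 4581 to 4785). Markers of mesenchyme were higher in 6 of 9 (14179 to 15788 against 11297 to 11705), of granulocytes in 5 of 8 (11794 to 11903 against 9079 to 9190.3), of megakaryocytes in 3 of 4 (2625 to 3015 against 1568 to 1699), of endothelium in 3 of 9 (5574 to 5878 against 4514 to 4767) and of macrophages in 3 of 9 (5814 to 6334 against 5068 to 5341). The endothelial marker Flt1 was counted by its brightest probe set as not passed (0.26 ± 0.14, limma adjusted p = 0.219). A dimmer Flt1 probe set was higher in Rb null livers (1.87 ± 0.18, limma adjusted p = 0.000429). Hepatoblast markers were lower in 2 and higher in 2 of 13 (15.4% each, sums 46790.0 to 49693 against 49422 to 53470). Their median log2 fold change was 0.10, with 9 values positive and 4 negative. The summed signal of the replication genes was 65904 to 67107 in Rb null and 74780 to 77950.5 in wild type livers. No marker was listed at 0, and the markers on the array that stayed below the signal filter were Meis1, Runx1, Adgre1, Maf, Axl, Pf4, Itgb3, Ctsg, Pecam1, Pdgfrb, Vim and Des. All 13 hepatoblast and all 12 erythroid markers on the array were above it. The part of cell composition in the replication result was not tested.

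Another scaling changed how many genes passed, but not the direction of those that fell. With arrays scaled to equal medians 23 of the 42 genes were lower, the median of all tested genes moved by -0.13, and 366 genes of the array were higher and 1093 lower, so that upward calls made up 25.1% of all calls, against 57.9% as deposited. Relative to the median of all tested genes, the replication median was -0.18 after that scaling and -0.17 as deposited. The same contrast was smaller after quantile normalization (-0.11) and after cyclic loess (-0.11). After quantile normalization 8 genes passed, 6 of them among the 11, and after cyclic loess also 8, with 6 among the 11. Mcm10 and Orc1 were the genes gained in both. Rrm2 was -0.29 after quantile normalization and -0.30 after cyclic loess, against -0.37 as deposited.

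**Figure D5:**
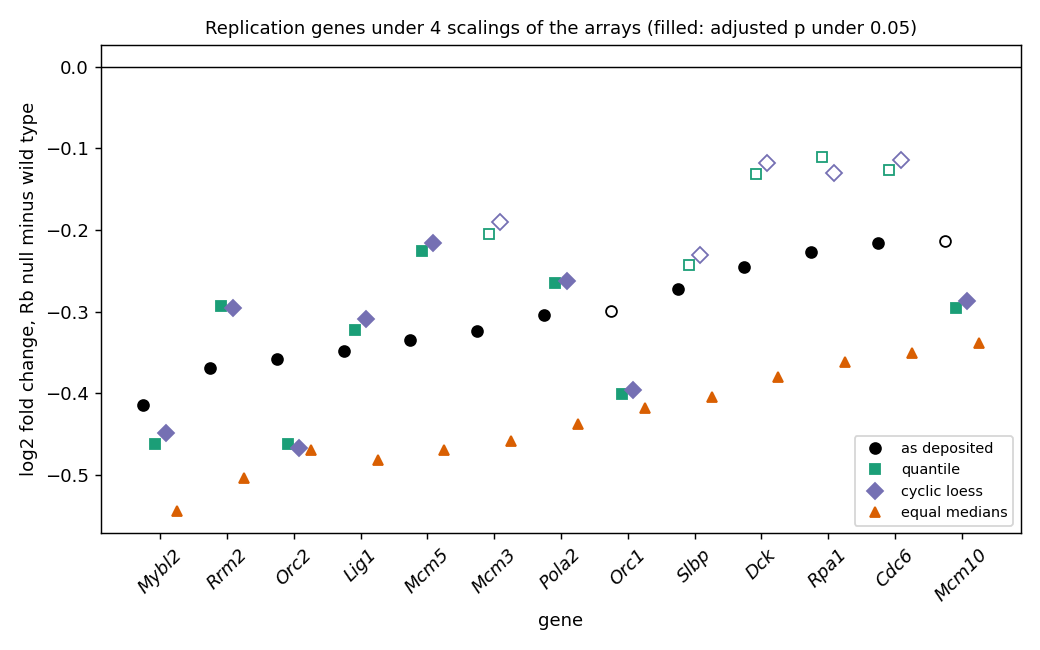
Log2 fold change (Rb null minus wild type) of the 11 genes that fell and of Orc1 and Mcm10 under 4 scalings of the arrays; filled symbols passed the adjusted test. All 52 values shown are negative, Mcm3, Cdc6, Rpa1, Dck and Slbp lose the filled symbol after quantile normalization and cyclic loess, and all 13 are filled after scaling to equal medians.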

How the data were processed

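Livers of 6 embryos were read on Affymetrix arrays from 6 ug of total RNA each. The deposited intensity values were computed by the authors with MAS5, per the submitters' processing notes; version and scaling target are not given in the sources used here. The values are linear, and the 2% trimmed mean was about 500.2 on each of the 6 arrays. Of 12488 probe sets, 66 controls were left out, 10833 had 1 gene symbol, 396 several and 1193 none.

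Signals were raised by 50.02 units (0.1 of the trimmed mean) and put on the log2 scale, and the test covered probe sets averaging above 150.1 (0.3 of the trimmed mean). The test was limma 3.58.1 in R 4.3.3 with an intensity trend, adjusted over 6793 probe sets at 0.05, and it was tested on simulated data. Each gene was represented by its brightest probe set with 1 symbol. All 48 genes could be named, with values per embryo for those past the test; of other lists up to 4 genes past it were named. Members and lists were chosen with earlier results of these data known. Replicates are separate embryos. Replicate numbers are shared by the genotypes. Correlations of deviations were -0.06, 0.05 and 0.27 for same-numbered embryos and from -0.25 to 0.22 for differently numbered ones. Only the embryos numbered 3 correlated above every differently numbered pair, so the numbers were not taken as pairs. Promoters are RefSeq windows (GRCm38.p6). Alternatives covered scaling, offset, filter, trend, block, probe set choice and each embryo left out.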

Additional observations from a re-analysis of the deposited data

How the results depend on the processing

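The number of replication genes lower in Rb null livers was 11 as deposited and ranged from 5 to 11 on leaving out 1 embryo, while the number higher ranged from 0 to 1. It was 8 after quantile normalization and after cyclic loess, 8 of 45 tested with no filter and 10 of 34 tested with the stricter filter. With the smaller offset it was 10, with no intensity trend 9 and after scaling to equal medians 23. It was 5 with the average over all probe sets of each gene. With the last, the Lig1 change became 0.00246. The median log2 fold change of the replication genes was -0.15 as deposited, -0.28 with equal medians, -0.12 after cyclic loess, -0.11 with the mean of probe sets and from -0.17 to -0.11 on leaving out 1 embryo. Over all tested genes, 501 were lower and 690 higher as deposited, 1093 and 366 with equal medians, and 533 and 428 with the stricter filter. Leaving out 1 embryo gave 256 to 429 lower and 419 to 553 higher. With the replicate block 12 replication genes were lower (488 lower and 639 higher over all genes), with Mcm4 and Fen1 gained and Orc2 lost. Same-numbered embryos did not all correlate best with each other, so that fit only changes the model. Offsets of 0.02 and 0.3 of the trimmed mean, a robust trend and dropping suffix-letter probe sets kept the count between 10 and 11. Dropping suffix-letter probe sets left 40 replication genes tested, with Dck out of the test and Orc1 gained (limma adjusted p = 0.0495). The causes of these changes were not tested. Dim probe sets, Mcm6, Dbf4 and Gins2 among them, limit what the arrays show.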
